A study of Mus musculus with 2 samples.

Results

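The genes described here were the 10 genes of MHC class I presentation and the immunoproteasome, H2-K1, H2-D1, B2m, Tap1, Tap2, Tapbp, Psmb8, Psmb9, Psmb10 and Nlrc5. They were chosen by symbol for their role in presentation, with no measured value in the rule, and were 10 of the 32285 features counted in each section. MHC class I molecules show peptides of a cell's own proteins to CD8 T cells. The immunoproteasome cuts proteins into such peptides, the TAP transporter carries them into the endoplasmic reticulum, and tapasin helps load them onto a heavy chain paired with beta-2-microglobulin. Interferon-gamma is a known inducer of the whole set, and reduced class I presentation is a known way for tumour cells to avoid T cells. The question was whether metastasis spots held more or less of these transcripts than lung tissue.

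The data were Visium spatial transcriptomes of 2 mouse lung sections, 1 labelled as a normal lung with no treatment and 1 labelled as a lung with 4T1 metastases. 4T1 is a mammary tumour line derived from Balb/c mice. For this model the methods name female Balb/c mice of 6 to 8 weeks, given 1000000 4T1 cells in a mammary fat pad, with lungs taken 21 to 23 days later; strain and age of the control animal are not given separately in the sources used here. Each group was thus 1 section of 1 lung, and animal, section, capture area and condition cannot be told apart. A spot holds several cells, so fewer cells of a type and less RNA per cell cannot be told apart either. Because the spots came from only 1 section a group, no test was run, and every interval below is an exact 95% interval that covers counting error only.

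Zones of the metastatic section were rebuilt from the counts. Of 5 clusters of spots, built without the 10 genes and without class I, class II, proteasome and interferon genes, the cluster with the highest mean score for a list of 4T1 tumour genes was taken as the metastasis core. It held 95 spots, of which 91 lay in pieces of at least 3 spots, a larger metastasis of 79 spots and a smaller one of 12 spots. Distance from the core was measured from all 95 spots of the cluster, and the 4 outside these pieces were in no zone. The margin was the 102 other spots within 200 µm. The intermediate zone was the 176 spots from there to 500 µm, and far lung the 737 spots beyond 500 µm. The control section gave 1888 spots. Total counts were 1634640 in the core, 1266583 in the margin, 2233870 in the intermediate zone, 9483672 in far lung and 20329126 in the control, with median counts per spot of 17097, 11254.5, 10992, 10977 and 9643.5. Levels are summed counts per 10000 summed counts (CP10k).

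The core label was set beside markers, of which Mki67, Top2a and Hmga2 belong to the tumour list that picked the core. Their high level there follows in part from that choice and is no check. Proliferation genes were highest in the core as a whole: Mki67 stood at 1.101 CP10k in the core and 0.080 in far lung, and Top2a, a topoisomerase of dividing cells, at 1.41 and 0.065. Hmga2, a chromatin protein of fetal and tumour cells, stood at 0.190 and 0.005. The summed list of AT2 (alveolar type 2) genes stood at 203 CP10k in far lung and 22.6 in the core, and the summed airway list at 2475 and 25.9. Epcam, an epithelial adhesion gene, was low in the larger metastasis, at 0.062 CP10k and 0.116 times far lung (0.055 to 0.215). The smaller metastasis, with a median of 2192.5 counts per spot, had 0 counts of Mki67 and of Hmga2. The upper interval bound was 1.098 CP10k for each, so these genes did not mark it as tumour. Top2a had 2 counts there, 9.11 times far lung (1.08 to 34.3), and Epcam had 1. Myc, which is not in the tumour list, had 18 counts there, 29.9 times far lung (17.3 to 48.7). In the larger metastasis Myc stood at 17.9 times far lung (15.1 to 21.5). The tumour list itself separated core from margin poorly, at 11.4 against 12.3 CP10k, since Fabp5, a fatty acid binding protein, was higher in the margin. The keratin Krt14 had no count in the metastatic section's zones. The next cluster on that score, 97 spots at a median of 173 µm from the core, had a mean score of 0.686 against 0.775, so the border between core and margin rests on a narrow difference.

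The genes lie on 3 chromosomes (GRCm38, GENCODE M21). H2-K1, H2-D1, Tap1, Tap2, Tapbp, Psmb8 and Psmb9 lie in the MHC on chromosome 17, between 33915899 and 35267499. B2m lies on chromosome 2 from 122147686 to 122153083. Psmb10 (105935735 to 105938444) and Nlrc5 (94434356 to 94527272) lie apart from each other on chromosome 8. Promoter sequence from RefSeq (GRCm38.p6) matched 8 of the 10 genes, all but Tap2 and Nlrc5. The stretches below are shown because they carry the interferon-type motifs found, or because Tap1 and Psmb9 share them. In the B2m promoter, from 160 to 41 bases before the start (chr2:122147527-122147646, plus strand), capitals mark letters of an interferon-stimulated response element (GAAA, any 2 bases, GAAA), of an NF-kB site (GGGA, any base, TTTCC, here on the minus strand) and of a CCAAT box (ATTGG). In the Psmb8 promoter, from 130 to 61 bases before the start (chr17:34198065-34198134, plus strand), capitals mark letters of a gamma-activated site (TTC, any 3 bases, GAA), a motif of interferon-gamma induced genes. Tap1 and Psmb9 start back to back: the 225 bases between their RefSeq starts (chr17:34187331-34187555, shown on the plus strand, the strand of Tap1) hold the single CCAAT box of both promoters, in capitals on the minus strand. The GENCODE model of Psmb9 reaches 34187764, past this stretch.
B2m: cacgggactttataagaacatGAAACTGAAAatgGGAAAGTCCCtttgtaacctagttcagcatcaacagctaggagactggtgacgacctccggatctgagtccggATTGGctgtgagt
Psmb8: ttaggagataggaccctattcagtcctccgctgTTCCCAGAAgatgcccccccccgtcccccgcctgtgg
Tap1 and Psmb9: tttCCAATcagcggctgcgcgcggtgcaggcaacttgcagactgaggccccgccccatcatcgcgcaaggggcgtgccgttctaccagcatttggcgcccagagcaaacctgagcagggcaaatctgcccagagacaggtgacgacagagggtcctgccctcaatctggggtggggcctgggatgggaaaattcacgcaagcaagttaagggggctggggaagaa

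Searched on both strands of 32851 promoters of 300 bases (250 before to 50 after the start), the interferon-stimulated response element occurred in 3.44%, the gamma-activated site in 8.30%, the NF-kB letters in 0.411% and ATTGG in 37.4%. Among the 8 matched genes, B2m held the response element and the NF-kB letters, Psmb8 the gamma-activated site, and H2-K1, H2-D1, B2m, Tap1, Tapbp and Psmb9 at least 1 CCAAT box. A match is a description of the letters and not a site.

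Together the 10 genes reached 118 CP10k in the core (interval 117 to 120), 137 in the margin (135 to 139), 81.8 in the intermediate zone (80.6 to 83.0), 58.0 in far lung (57.5 to 58.5) and 48.8 in the control lung (48.5 to 49.1). With all lung spots and all counts in the totals, the core thus held 2.04 times the level of far lung and 2.43 times that of the control lung. The margin held the highest level of the zones. These summed ratios were not computed under the other scalings given below for single genes. Single spots overlapped widely: core spots ran from 58.1 to 180 CP10k with a median of 114, while far lung spots had a median of 68.5 and control spots of 59.1. Of the 91 core spots, 89 lay above the far lung median and 90 above the control median, and none lay above the highest spot of either lung.

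**Figure D1:**
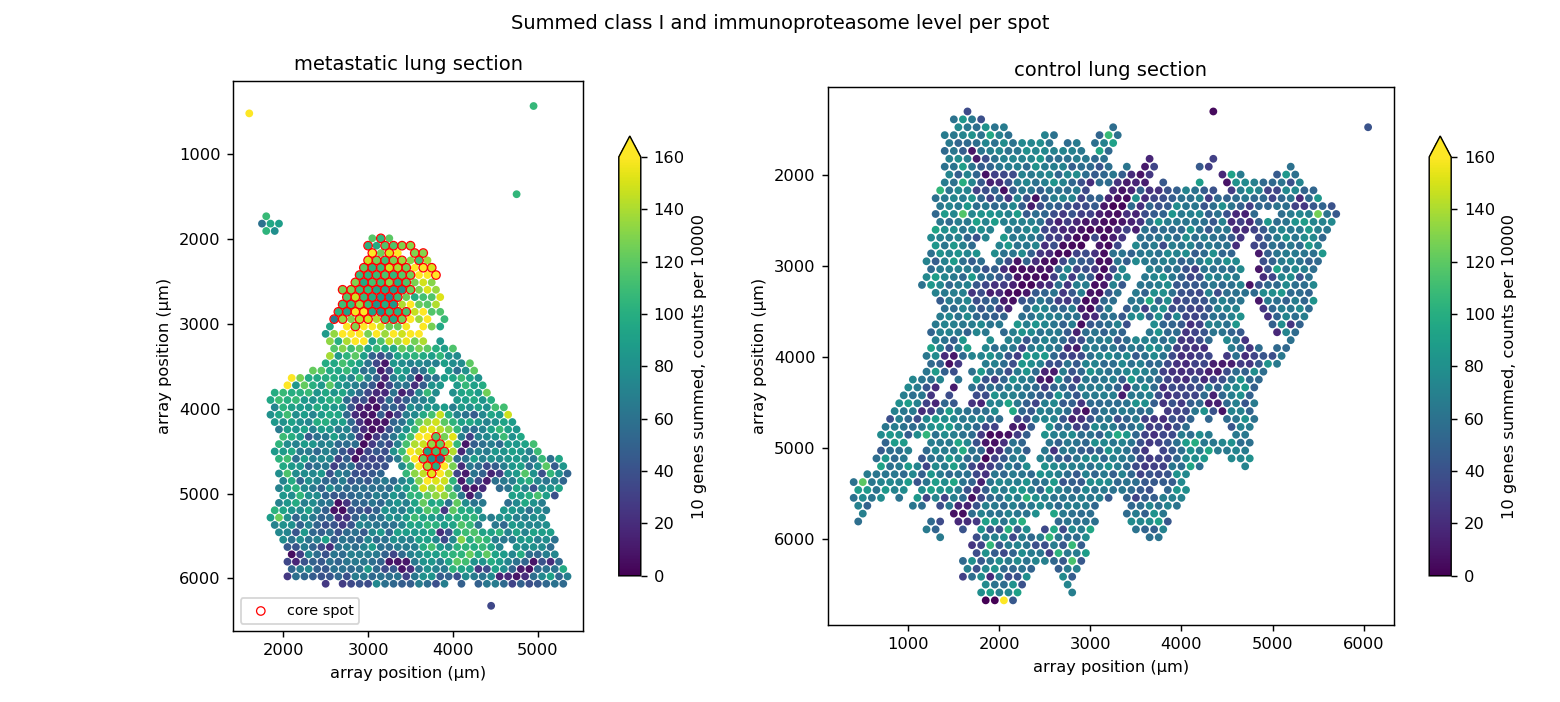
Summed level of the 10 genes in each spot (colour, counts per 10000) at its array position in µm, for the metastatic section with 91 core spots ringed in red and for the control section. High values fill the core and a band around both metastases, where the margin reached 137 counts per 10000, and dark streaks cross both lungs.

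Of the classical heavy chains, H2-K1 was higher in the core than in both lungs, while the ratio of H2-D1 to far lung turned with the scaling, from 1.53 to 0.93 with airway-rich and other rich lung spots and abundant genes left out. H2-K1, the heavy chain that presents peptides at the cell surface, stood at 29.7 CP10k in the core, 34.2 in the margin, 17.4 in the intermediate zone, 11.3 in far lung and 10.7 in the control lung. The ratio of core over far lung was 2.63 (2.54 to 2.72), and 90 of 91 core spots exceeded the far lung median. H2-D1, the other heavy chain of this pair, stood at 38.3, 46.3, 33.2, 25.004 and 20.7 CP10k in the same order. Its core level was 1.53 times that of far lung (1.49 to 1.57) and 1.85 times that of the control lung (1.80 to 1.90). H2-D1 therefore differed less between core and lung than H2-K1. Within their summed counts, H2-K1 took 43.7% in the core (42.8 to 44.7), 42.5% in the margin, 34.3% in the intermediate zone, 31.1% in far lung and 34.2% in the control lung.

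B2m, the light chain that every class I heavy chain needs to reach the surface, moved with H2-K1. It stood at 33.6 CP10k in the core, 36.1 in the margin, 20.9 in the intermediate zone, 14.7 in far lung and 10.8 in the control lung. The core was 2.29 times far lung (2.22 to 2.36) and 3.10 times the control lung (3.01 to 3.19). B2m also differed between the lungs, with far lung at 1.36 times the control (1.33 to 1.39).

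Of the 2 transporter subunits, Tap1 varied more than Tap2. Tap1 stood at 1.68 CP10k in the core, 2.78 in the margin, 1.22 in the intermediate zone, 0.614 in far lung and 0.554 in the control lung. Tap2 stood at 0.985, 1.45, 1.03, 0.737 and 0.572 in the same zones. The ratio of core over far lung was 2.73 for Tap1 (2.36 to 3.16) but 1.34 for Tap2 (1.12 to 1.59), below the 1.5-fold used here as a call. Tap1 took 63.0% of the counts of both subunits in the core (58.3 to 67.5), against 45.4% in far lung (42.7 to 48.2) and 49.2% in the control lung (47.1 to 51.3). Tapbp, which encodes tapasin, stood at 3.19 CP10k in the core, 4.35 in the margin, 2.98 in the intermediate zone, 2.27 in far lung and 2.47 in the control lung. Its core level was 1.40 times far lung (1.27 to 1.55) and 1.29 times the control lung (1.18 to 1.41), the smallest ratio to the control among the 10 genes.

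The immunoproteasome subunits were all higher in the core and margin than in lung. Psmb8, the inducible subunit that takes the place of Psmb5, reached 5.65 CP10k in the core and 5.78 in the margin, against 2.26 in the intermediate zone, 1.44 in far lung and 1.16 in the control lung. Psmb9, which takes the place of Psmb6, stood at 1.98, 2.14, 1.04, 0.742 and 0.510. Psmb10, which takes the place of Psmb7, stood at 2.45, 2.47, 1.46, 1.08 and 1.17. Core over far lung ratios were 3.91 (3.59 to 4.26) for Psmb8, 2.66 (2.33 to 3.04) for Psmb9 and 2.28 (2.02 to 2.56) for Psmb10. For all 3 subunits the interval of the core over margin ratio included 1.

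Nlrc5, the transactivator of class I genes, had the largest ratio of core over far lung among the 10 genes. It stood at 0.887 CP10k in the core (0.749 to 1.04), 1.06 in the margin (0.886 to 1.25), 0.291 in the intermediate zone, 0.124 in far lung (0.103 to 0.149) and 0.121 in the control lung (0.106 to 0.137). The core was 7.13 times far lung (5.55 to 9.17) and 7.36 times the control lung (5.95 to 9.08). These ratios rest on 145 counts in the core and 118 in far lung. A count of Nlrc5 was found in 68.1% of core spots, at 17097 counts per median spot, and in 14.1% of far lung spots, at 10977.

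**Figure D2:**
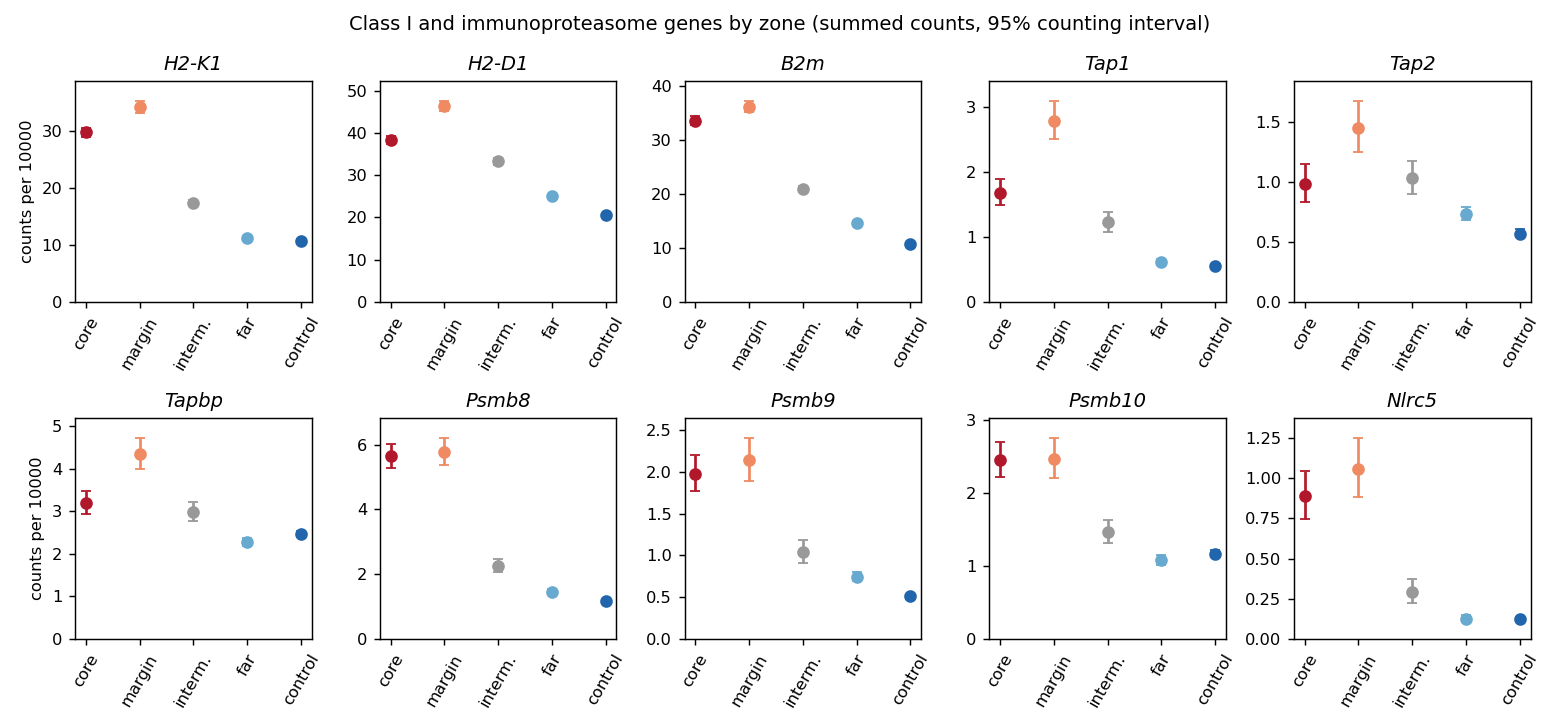
Counts per 10000 of each of the 10 genes (y axis, from 0) in the core, margin, intermediate zone, far lung and control lung (x axis), with 95% counting intervals. Each gene was highest in the margin, and H2-D1, Tap2 and Tapbp showed the flattest course from core to lung.

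With a call set at a ratio of at least 1.5, 8 of the 10 genes were higher in the core than in far lung and 0 were lower, all but Tap2 and Tapbp being called. Over all 11451 genes with at least 50 counts in the zones compared, 35.3% were called higher and 26.2% lower in the same comparison. The median log2 ratio was 1.29 for the 10 genes and 0.23 for all genes tested. Against the control lung 9 of the 10 were higher and 0 lower, all but Tapbp being called, beside 28.5% higher and 34.2% lower of 13076 genes, with median log2 ratios of 1.54 and -0.01. With abundant genes left out of the totals, H2-D1 stood at 1.41 times the control lung, Tap2 at 1.31 and Tapbp at 0.99, and with rich lung spots left out as well at 1.27, 1.24 and 0.89 (0.81 to 0.98), so the calls of H2-D1 and Tap2 were lost and Tapbp turned. Both comparisons share the core spots, so neither backs up the other. Nlrc5 exceeded 98.2% of all tested genes in its ratio of core over far lung, Psmb8 94.6%, H2-K1 87.2% and B2m 83.1%, whereas H2-D1 exceeded 65.3%, Tapbp 60.2% and Tap2 57.5%, close to the middle of all genes.

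The ratios depended on which lung spots and which totals were used. Scgb1a1, the secretory protein of club cells, took 24.3% of all counts in far lung and 15.2% in the control lung, but 0.252% in the core. In far lung, the 141 airway-rich spots, above the 90th percentile of control spots in the airway list, held the 10 genes at 23.9 CP10k, 0.313 times the level of the other far lung spots (0.306 to 0.321). In the control lung the 189 airway-rich spots held 12.9 CP10k, 0.221 times the rest. In far lung, mesothelium-rich spots stood at 96.7 CP10k, 1.70 times the rest, endothelium-rich spots at 86.0, 1.62 times, and macrophage-rich spots at 83.2, 1.59 times. When airway-rich, B-cell-rich and cardiac-muscle-rich lung spots were left out, core over far lung fell to 2.02 for H2-K1, 1.73 for B2m, 3.01 for Psmb8 and 5.48 for Nlrc5, and to 1.16 for H2-D1, 1.08 for Tapbp and 1.05 for Tap2.

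Another scaling left Scgb1a1, haemoglobin, mitochondrial, surfactant protein and immunoglobulin genes out of the totals, which moved the median log2 ratio of core over far lung over all genes outside that list from 0.21 to -0.33. On that scale 18.1% of genes were higher and 40.5% lower, beside 35.3% and 26.1% with all counts. Core over far lung then stood at 4.88 for Nlrc5, 2.68 for Psmb8, 1.87 for Tap1, 1.82 for Psmb9, 1.80 for H2-K1 and 1.56 for both B2m and Psmb10. H2-D1 was at 1.05, Tapbp at 0.96 and Tap2 at 0.91. With both changes made, H2-D1 was lower in the core than in far lung, at 0.93 (0.90 to 0.96), Tapbp stood at 0.87 and Tap2 at 0.84, while Nlrc5 stood at 4.38, Psmb8 at 2.40, Tap1 at 1.67, H2-K1 at 1.61, Psmb9 at 1.60, Psmb10 at 1.43 and B2m at 1.38. Both changes together were added after the data were seen. H2-D1, Tapbp and Tap2 thus had no direction against far lung that held under these scalings.

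**Figure D3:**
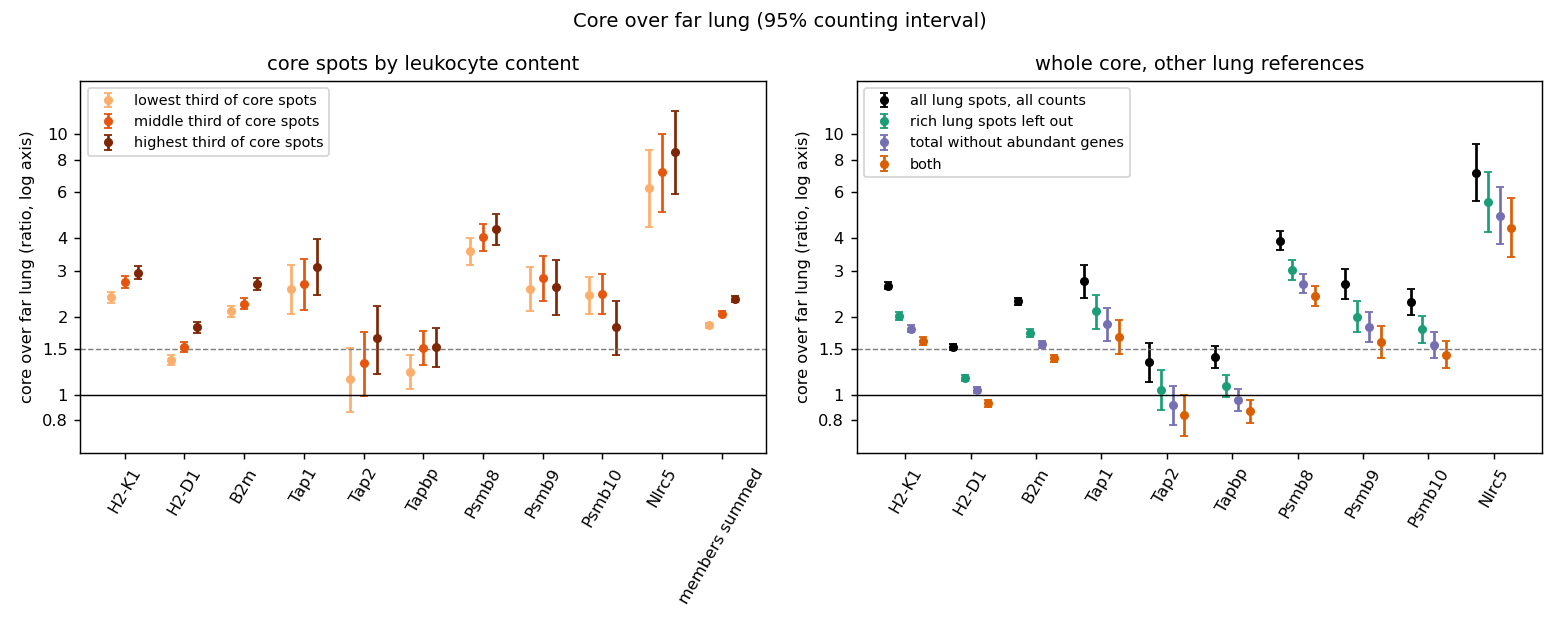
Ratio of core over far lung (log axis, 95% counting intervals) for each gene, left for core spots split by leukocyte content (31, 30 and 30 spots), right for the whole core with rich lung spots left out, with abundant genes left out of the totals, or both. The solid line marks 1 and the dashed line 1.5. H2-D1 moved from 1.53 to 0.93 across the settings on the right and Nlrc5 from 7.13 to 4.38.

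Markers of other cell types also differed between the zones. The macrophage and monocyte list stood at 20.3 CP10k in the core, 19.3 in the margin, 5.21 in far lung and 3.44 in the control lung, with 9 of its 10 genes higher in the core than in far lung, beside 35.3% of all genes, and none at 0. The list of general leukocyte genes stood at 8.35, 15.8, 5.29 and 4.44 in those zones, with 2 of 5 genes called higher in the core. The T and NK cell list stood at 1.67 in the core, 4.18 in the margin and 1.68 in the control lung, and its core level was 1.39 times far lung, with 3 of its 9 tested genes called higher. The counts of the leukocyte and T and NK cell lists were near the share of all genes. The neutrophil list was lower in the core, at 1.83 against 24.4 CP10k in far lung, in 8 of 8 tested genes, beside 26.2% of all genes. In the control lung it stood at 2.40 CP10k, and the core was 0.763 times that level (0.677 to 0.858). Against the control, 4 of 6 tested neutrophil genes were called lower in the core, beside 34.2% of all genes. The part of these cell types in the class I levels was not tested.

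Core spots were then split by their summed leukocyte lists, a split not run with rich lung spots or abundant genes left out. With all counts in the totals, the 31 spots lowest in leukocyte signal stood above both lungs for the 10 genes summed. They held the 10 genes at 107 CP10k (105 to 110), 1.85 times far lung and 2.20 times the control lung, against 119 in the 30 middle spots and 136 in the 30 highest (132 to 139). The ratio of lowest over highest was 0.791 (0.763 to 0.819). In these 31 spots Ptprc, the pan-leukocyte phosphatase CD45, stood at 0.748 times its far lung level (0.492 to 1.09), and Cd3e of T cells had 1 count. Both genes are in the lists that ranked the spots, so low values follow from the split. The summed leukocyte lists, neutrophil genes included, stood at 0.578 times far lung but 1.48 times the control lung. The neutrophil list alone stood at 24.4 CP10k in far lung and 1.83 in the whole core. The 0.578 thus does not describe the other leukocytes. Macrophage genes were still at 2.53 times far lung, so these spots were not free of macrophage transcripts. Mki67, a gene of the tumour list that picked the core, was 13.8 times its far lung level there.

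Gene by gene, the low-leukocyte core spots differed from far lung by 6.23 times for Nlrc5 (4.40 to 8.72), 3.56 for Psmb8, 2.56 for Psmb9, 2.55 for Tap1, 2.41 for Psmb10, 2.37 for H2-K1 and 2.09 for B2m. H2-D1 stood at 1.36 times, Tapbp at 1.23 times and Tap2 at 1.16 times (0.864 to 1.52). Not all genes were lower where leukocyte signal was lowest: Psmb10 stood at 1.33 times its level in the highest spots (1.01 to 1.76), and the interval of Psmb9 included 1 (0.983, 0.735 to 1.32). Across the 91 core spots, the summed level of the 10 genes had a Pearson correlation of 0.41 with the leukocyte lists, 0.46 with the interferon-gamma list, 0.41 with the tumour list and -0.04 with the AT2 list. These are descriptions over spots of 1 section that share libraries and depth.

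The sum differed little by position within the metastases. The 33 interior spots, with core spots on all sides, stood at 111 CP10k and the 58 edge spots at 122, a ratio of 0.909 (0.882 to 0.936). Psmb9 was lower inside, at 0.719 times the edge (0.560 to 0.918), B2m at 0.857 times (0.810 to 0.907) and H2-D1 at 0.895 times (0.849 to 0.944), while the intervals of H2-K1, Tap1, Tap2, Tapbp, Psmb8, Psmb10 and Nlrc5 included 1. The larger metastasis stood at 118 CP10k and the smaller at 122, a ratio of 0.972 (0.881 to 1.07). The smaller metastasis had a median of 2192.5 counts per spot, so single genes there rest on few counts: H2-K1 was higher in it (larger over smaller 0.764, 0.642 to 0.917) and B2m lower (1.33, 1.08 to 1.67).

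The margin was compared next. All 10 genes were called higher in the margin than in far lung, beside 37.5% higher and 14.2% lower of 11378 genes, with median log2 ratios of 1.41 and 0.39. Tap1 reached 4.53 times far lung (3.96 to 5.18) and Nlrc5 8.503 times (6.59 to 10.98). Against the control lung all 10 were higher too, beside 28.3% higher and 22.9% lower of 13030 genes. Core over margin gave 0 genes called higher and 1 lower, Tap1 at 0.603 (0.513 to 0.708), beside 10.3% and 21.1% of 7879 genes. Tap2, at 0.678, and Tapbp, at 0.734, were also lower in the core by intervals that excluded 1, as were H2-D1 at 0.827, H2-K1 at 0.869 and B2m at 0.929. The intervals of Psmb8, Psmb9, Psmb10 and Nlrc5 included 1. The order of the zones for most genes was thus margin, core, intermediate zone, far lung and control lung, and core and margin were not separated by counting error for the 3 proteasome subunits and Nlrc5. The order of core and margin turned with the border: with 4 clusters, which put 175 spots in the core, Tap1 stood at 1.65 times the margin, all 10 genes stood above 1 in the core over the margin and 7 were called higher. Margin over far lung then gave 5 genes called higher in place of 10, with Nlrc5 at 2.92 times, Tap1 at 2.26, Psmb8 at 1.90, H2-K1 at 1.70 and Psmb9 at 1.52. The share of all genes was not computed with 4 clusters, so these counts show nothing particular to the 10 genes.

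In steps of 100 µm, the summed level was 144 CP10k at 0 to 100 µm from the core, 128 at 100 to 200 µm, 95.3 at 200 to 300 µm, 77.1 at 300 to 400 µm, 71.8 at 400 to 500 µm and 61.8 at 500 to 600 µm, and it lay between 55.0 and 60.4 farther out. Each of the 10 genes was highest in the ring nearest the core. The highest ring was 12.02 times the lowest for Nlrc5, 5.50 times for Psmb8 and 5.30 times for Tap1, and 2.03 times for H2-D1. From 200 to 500 µm, H2-K1, Tap1, Psmb8 and Nlrc5 were still called higher than in far lung, with ratios of 1.54, 1.99, 1.57 and 2.34, beside 11.8% of 11478 genes. Ring levels and these ratios were computed with all counts in the totals only. Scgb1a1 rose from 25.2 CP10k in the core to 2829 at 600 to 700 µm, and its part in the fall of the 10 genes was not tested.

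**Figure D4:**
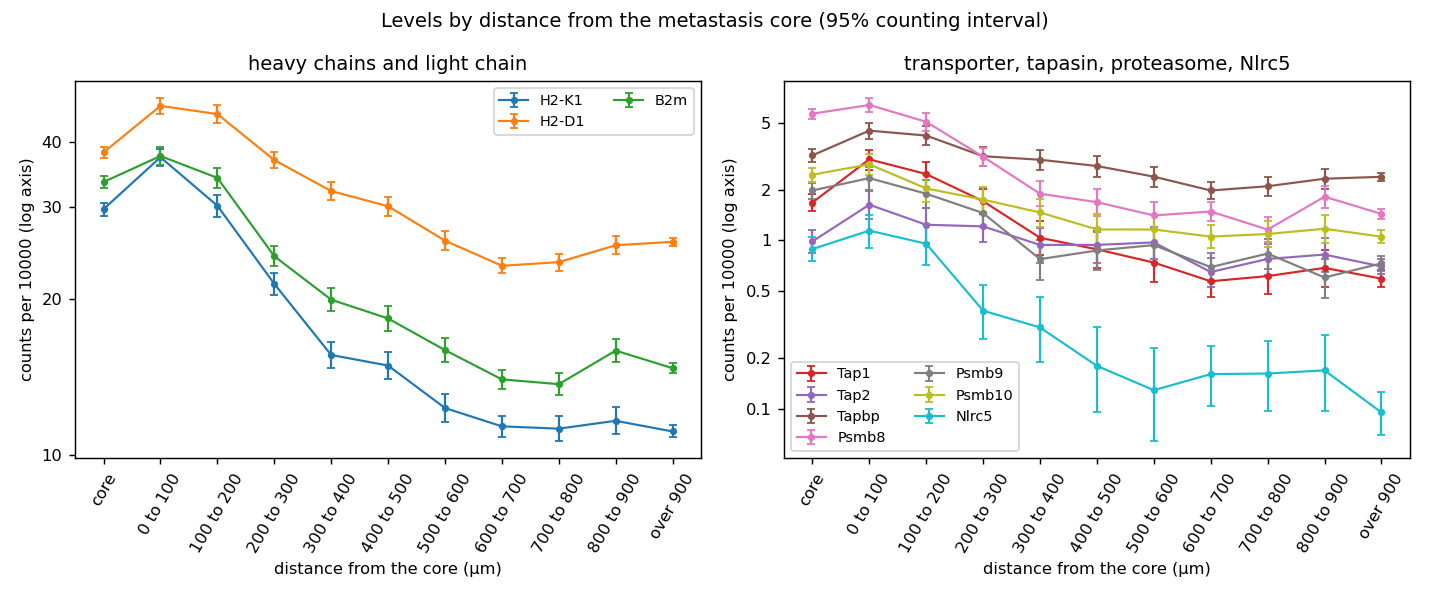
Counts per 10000 (log axes) in the core and in rings by distance from it in µm, with 95% counting intervals, left for H2-K1, H2-D1 and B2m, right for the other 7 genes. All lines peak in the nearest ring and level off beyond about 500 µm.

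Over the core and these 10 rings, the genes outside the set whose log2 level followed the summed 10 genes most closely, of 4490 genes with at least 500 counts, were Ctss (r = 0.995), Ctsz, Tyrobp, Gbp2 and Lgals3 (r = 0.992). Ctss and Ctsz encode lysosomal cathepsins, Tyrobp a myeloid signalling adaptor, Gbp2 an interferon-induced GTPase and Lgals3 a galectin. The correlations describe 11 zones of 1 section.

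Far lung and the control lung lay closer together than either lay to the core. No gene of the 10 was called in either direction, beside 2.51% higher and 12.4% lower of 13429 genes. The largest ratios of far over control lung were 1.46 for Psmb9 (1.32 to 1.60), 1.36 for B2m and 1.29 for Tap2 (1.17 to 1.42), and the lowest were 0.92 for Tapbp and Psmb10. Median log2 ratios were 0.21 for the 10 genes and -0.19 for all genes. With rich lung spots left out, Psmb9 stood at 1.70 times the control and would be called. In far lung, the 163 spots with a count of Cxcl9, an interferon-gamma induced chemokine, held the 10 genes at 68.1 CP10k against 55.2 in the 574 without, a ratio of 1.23 (1.21 to 1.26).

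The balance of inducible and constitutive proteasome subunits shows the same zones on a scale that does not use the totals. Psmb8 took 75.8% of the counts of Psmb8 and Psmb5 in the core (73.3 to 78.2), 76.0% in the margin, 64.5% in the intermediate zone, 57.3% in far lung (55.3 to 59.3) and 51.5% in the control lung (50.0 to 52.9). Psmb9 took 50.9% of the counts of Psmb9 and Psmb6 in the core (47.0 to 54.9), 53.2% in the margin, 38.4% in the intermediate zone, 35.2% in far lung and 23.8% in the control lung (22.5 to 25.1). Psmb10 took 63.2% of the counts of Psmb10 and Psmb7 in the core (59.4 to 67.01), 61.7% in far lung and 63.4% in the control lung (61.9 to 65.0). The Psmb10 share was therefore flat where the other 2 shares were highest beside and in the metastases. With all counts in the totals, Psmb7 and Psmb5 were themselves higher in the core than in far lung, by 2.13 and 1.67 times, and Psmb6 by 1.39 times. These 3 ratios were not computed with abundant genes left out of the totals. A share compares zones and says nothing of the protein amounts of the pair.

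**Figure D5:**
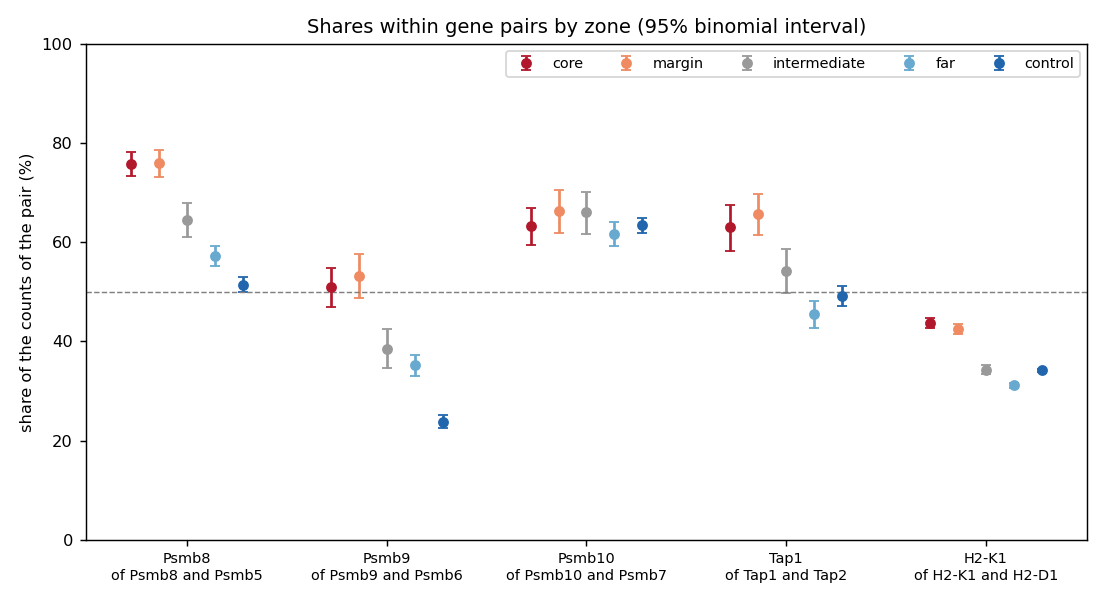
Share of the first gene in the summed counts of a gene pair (y axis, %, 0 to 100) in each zone (colours), with exact 95% binomial intervals. Psmb8 ran from 51.5% in the control lung to 75.8% in the core, while the Psmb10 share stayed between 61.7% and 66.3% in the 5 zones.

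Other genes of the pathway were read from lists. The 12 loading and trimming genes had 8 called higher and 0 lower in the core over far lung, beside 35.3% and 26.2% of all genes. Among them were Erap1, the peptide-trimming aminopeptidase, at 2.74 times (2.24 to 3.33), Hspa5, an endoplasmic reticulum chaperone, at 2.95 times, and Calr, the chaperone calreticulin, at 1.93 times. With the core border as reported, the only one used for this gene, Erap1 was also higher in the core than in the margin, at 1.58 times (1.19 to 2.12). Of the 4 proteasome activator genes 3 were called higher, led by Psme2 at 3.33 times (2.96 to 3.75) and Psme1 at 2.62 times. The 12 other subunits of the proteasome core had 11 called higher, with a median log2 ratio of 1.12, beside 0.23 for all genes.

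Of 15 class I-like heavy chains measured, 11 were tested in core over far lung, with 5 called higher and 4 lower, shares near the 35.3% and 26.2% of all genes. H2-T23, the Qa-1 ligand of NK cell receptors, stood at 3.29 CP10k in the core and 1.54 in far lung, 2.13 times (1.93 to 2.35). H2-Q7, of the Qa-2 family, stood at 2.01 and 0.861, 2.33 times, and was highest in the margin at 3.28. H2-Q4 was not called, at 1.38 times (0.975 to 1.92). H2-Q1 had 0 counts in the core, which by a floor of 3 counts over the zone's total allows up to 0.0184 CP10k, against 0.072 in far lung and 0.122 in the control lung.

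The summed lists of class I regulators and of interferon-gamma targets were highest in the margin. Of 20 tested regulators, 9 were called lower and 0 higher in the core over the margin, beside 21.1% and 10.3% of all genes, with a summed ratio of 0.655 (0.618 to 0.694). Irf1, a class I activator induced by interferon-gamma, stood at 1.28 CP10k in the core, 2.48 in the margin, 1.197 in far lung and 0.903 in the control lung, so its core level was 1.07 times far lung (0.917 to 1.24). The interferon-gamma list had 14 of 16 tested genes called higher and 2 lower in the core over far lung, beside 35.3% and 26.2% of all genes. In the core over the margin, 9 of its 15 tested genes were lower and 0 higher, beside 21.1% and 10.3% of all genes. Its summed ratio there was 0.560 (0.534 to 0.588). The MHC class II list was lower in the core than in the margin in 7 of 7 genes, beside 21.1% of all genes. Its summed ratio was 0.443 (0.430 to 0.456), against 0.866 (0.849 to 0.884) for the 10 class I and immunoproteasome genes. These core over margin values of the lists were not computed with another core border. With a core from 4 clusters, all 10 class I and immunoproteasome genes turned to stand above 1. Ifng itself had 4 counts in the core, 6 in the margin, 4 in the intermediate zone, 3 in far lung and 10 in the control lung, too few to compare. Cd274, which encodes PD-L1, had 12 counts in the core, 33 in the margin and 46 in far lung, and the interval of its core over far lung ratio of 1.51 (0.730 to 2.90) included 1.

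The counts were mapped to the C57BL/6J reference, whose MHC haplotype is not that of Balb/c mice. Balb/c mice also carry H2-L, a close relative of H2-D1 that is not among the features, so H2-D1 may include its reads. In the reference, the last 500 bases of transcripts shared 2 of 1323 windows of 90 bases, the read length, between H2-K1 and other heavy chains (0.151%), and 0 for the other 9 genes. How haplotype differences changed the levels of H2-K1 and H2-D1 was not tested, and comparisons between zones of the metastatic section share them as far as tumour and host share the strain.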

How the data were processed

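A control lung section and a lung section with 4T1 metastases were measured by Visium. The authors deposited unnormalised UMI counts per feature and spot; the submitters' processing notes name Space Ranger 1.3.1 and the mm10 build, and the annotation release is not given in the sources used here. Counts were summed over the spots of a zone and divided by summed totals (CP10k). Depth was 20329126 counts in 1888 control spots and 14657881 in 1110 metastatic spots; exact Poisson intervals (levels) and exact binomial intervals (ratios and shares), at 95%, cover counting error only. Each group was 1 sample, so no p-value was computed. A call was a ratio of at least 1.5, either way, among genes with at least 50 counts.

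To set the zones, spots were grouped into 5 clusters by k-means on 20 components of the 2000 most variable genes (seed 7), in Python 3.11.15 with numpy 2.4.6, scipy 1.17.1, pandas 2.3.3 and scikit-learn 1.9.0; figures used matplotlib 3.10.9. The code was tested on simulated data. All 10 genes are named in full; from other lists, those with the largest or smallest ratio or a known role in class I presentation, and the 5 genes most alike. A gene of the regulator lists is not reported here. The genes and lists were chosen with earlier results of these data known. Alternatives changed the core, margin, far lung, lung spots, depth, totals, averaging and threshold, and 2 were added after seeing the data. Doublet calling does not apply to spots.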

Additional observations from a re-analysis of the deposited data

How the results depend on the processing

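In 19 alternatives, 164 of 190 counts of called genes stayed within 1.5 times the reported count and 26 did not. Part of the 164 could not move, so that number does not measure stability. A threshold of 10 counts changed nothing, as all 10 genes passed 50 counts. Settings that moved only the core or margin left far over control lung as it was. Shares of all genes were computed only for the totals without abundant genes, with all lung spots or with rich lung spots left out. The other counts have none beside them. For core over margin, the shares lower were 23.85% and 22.57% in that order. Core over margin varied most. Its count lower, 1 as reported, was 0 with a core from 4 clusters, with a core set by the tumour list score, with the interval bound past 1.5 and with a ratio past 2; it was 2 for the core interior, the larger metastasis, a margin within 100 µm, medians of spots, totals without abundant genes, and those totals with rich lung spots left out; and it was 3 for the smaller metastasis, spots thinned to 5000 counts, means of spots, and the core spots lowest in leukocyte signal. Its count higher, 0 as reported, was 7 with 4 clusters and 3 with the score, where Tap1 turned to 1.65 and 1.42. The core set by the score kept 66 spots, of which 40 were among the 91 spots of the reported core. Far over control lung, 0 higher as reported, gave 1 without rich lung spots, after thinning and with means of spots. It gave 2 with totals without abundant genes, beside 4.20% of all genes with rich lung spots and 4.12% without. Medians of spots gave 5 higher in the core over control lung and 5 over far lung, from 9 and 8. A gene with a median of 0 was left untested there. That took out Tap1, Tap2, Psmb9 and Nlrc5 against the control lung, and Tap1 and Nlrc5 against far lung. H2-D1, with medians of 37.8 in the core and 29.0 in far lung, was no longer called. Rich spots and abundant genes both left out gave 5 higher in the core over far lung, beside 18.9% of all genes. The margin over far lung then gave 6, beside 16.15%. That setting turned H2-D1 to 0.930 in the core over far lung. A core from 4 clusters gave 5 in the margin over far lung, from 10. In the smaller metastasis Psmb10 turned to 0.763 over control lung and 0.829 over far lung. Apart from the genes left untested under medians, the cause of these changes was not tested. Of 837 single ratios, 314 moved beyond their interval, 5 called ratios turned direction (those above), and 52 ratios in all, called or not, lay on the other side of 1 than as reported. Of these, 30 were of core over margin, among them all 10 genes with 4 clusters and 9 with the score, while 9 were of core over far lung, 8 of far over control lung and 5 of core over control lung. Totals without abundant genes moved the all-gene median log2 ratio of core over control lung from -0.03 to -0.42 and of margin over far lung from 0.37 to -0.10, with calls of 18.0% higher and 45.0% lower, and 16.2% higher and 25.9% lower. No paired analysis was possible because each group held 1 section. Depth limits Nlrc5, Tap2 and Cd274 most, and the smaller metastasis.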
